A study of Mus musculus with 20 samples.

Results

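A set of 40 genes that mark vascular endothelium were followed in mouse pancreatic islets and in islet grafts under the kidney capsule. The members were listed by gene symbol, and genes of the VEGF and angiopoietin families were left out. Of the 40 members, 39 had a probe set that the array annotation assigns to 1 gene symbol, among 19938 genes measured that way on Affymetrix MoGene 1.0 ST arrays. Selp, the gene of P-selectin, had none and is only named. Each of the 39 had exactly 1 such probe set, so no choice between probe sets was needed.

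The 20 arrays fell into 6 groups on the C57bl6/J background, written C57BL/6J in the study's methods. Grafts of islets from male donors were taken from hosts on pregnancy day 12.5 (P12.5, n = 3) and from non-pregnant hosts (NP, n = 3). Grafts of islets from female donors came from P12.5 hosts (n = 3) and NP hosts (n = 3). Islets that were never transplanted came from P12.5 (n = 4) and NP (n = 4) female mice. All hosts were female, were 8 to 12 weeks old and had been made diabetic with streptozotocin before they received freshly isolated islets of donors about 12 weeks old. The study mated only hosts whose blood glucose had returned to normal with the graft. It reports similar random fed glucose in transplanted and non-transplanted mice, pregnant or not. No streptozotocin is described for the non-transplanted mice, whose arrays are marked as a reanalysis, so transplantation, streptozotocin and array batch cannot be told apart in any comparison of grafts with islets. The labels name no single animals, so each p-value rests on the spread between the deposited arrays. The endothelium of a graft can come from the donor islets or grow in from the host, and these arrays cannot separate the 2 sources. In RNA of whole tissue, fewer endothelial cells and less RNA per endothelial cell cannot be told apart either.

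Endothelial cells line all vessels and hold together through junction proteins such as VE-cadherin and claudin-5. In islets they form a dense bed of fenestrated capillaries, in which diaphragms close the pores and through which insulin enters the blood. Their identity is kept by transcription factors of the ETS, SOX, GATA and TAL families, and they display receptors for angiogenic signals, adhesion molecules for leukocytes and docking proteins for blood lipases. When islets are isolated they are cut off from the circulation, and a graft has to be revascularised at its new site.

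Values are log2 expression levels, on which 1 unit is a factor of 2, rounded by the depositors to 1 decimal. Array medians were 5.9 to 6.0 and lower quartiles 4.7 to 4.9, and 32 of the 39 members had a mean over the arrays above the median of all values. Mmrn1 alone had a mean below the lower quartile. A gene was called at an adjusted p under 0.05 in limma, adjusted over all 35511 probe sets, with a fold change of at least 1.5. Levels of different probe sets are not set against each other.

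Grafts differed from islets in their other cells as well. The mean level of 12 acinar genes was 5.0 to 5.3 in the graft arrays, against 8.1 to 10.3 in the islet arrays. All 12 were called lower in each of the 4 comparisons of grafts with islets, against 1.22% to 5.25% of all probe sets. The mean of 27 kidney tubule genes was 5.8 to 8.3 in graft arrays, against 5.4 to 5.5 in islet arrays, that of 15 leukocyte genes 6.7 to 7.8 against 5.5 to 5.8, and that of 20 genes of mural cells and fibroblasts 7.1 to 8.5 against 6.2 to 6.4. The acinar, kidney tubule, leukocyte and mural lists thus separated all graft from all islet arrays, and their part in the differences between grafts and islets given below was not tested. The mean of 13 islet endocrine markers overlapped, at 11.1 to 11.7 in grafts, against 11.4 to 11.8 in islets.

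Of the 39 members, 34 had graft levels that overlapped those of islets when all 12 graft arrays were set against all 8 islet arrays. The 4 members Esm1, Plvap, Emcn and Gpihbp1 lay lower in every graft array, and Vcam1 lay higher in every one. The share of all genes that separated grafts from islets in this way is not given, so these counts only describe the members. The endothelial genes did not move as a block: between male NP grafts and NP islets the called members ran between 6.13-fold lower, for Esm1, and 4.26-fold higher, for Vcam1.

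**Figure D1:**
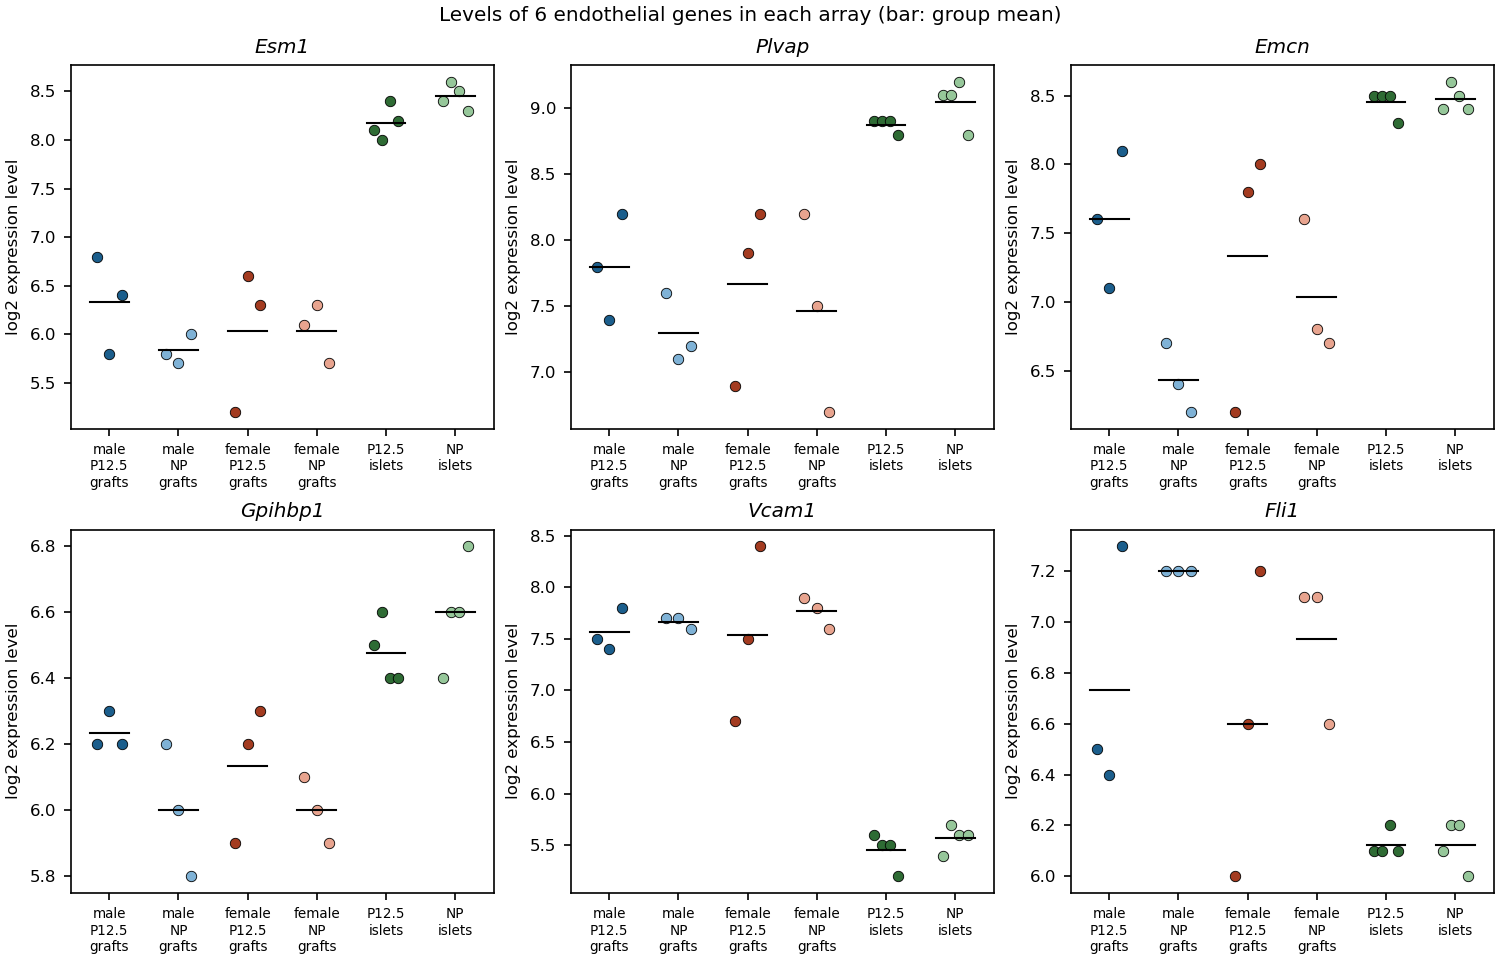
Log2 expression level (y axis) of Esm1, Plvap, Emcn, Gpihbp1, Vcam1 and Fli1 in each array (points) of the 6 groups (x axis), with the group mean as a bar; each panel has its own y axis. Esm1, Plvap, Emcn and Gpihbp1 lay lower in all 12 graft arrays and Vcam1 higher, while the Fli1 level of female P12.5 array 1 lay among those of islets.

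In the NP state, a minority of the endothelial genes was called lower in grafts than in NP islets, with Esm1, Emcn and Plvap in front. The genes of VE-cadherin, claudin-5 and CD31 were not called. They belong to 11 members listed as endothelium markers, of which 6 were called lower and 0 higher in NP grafts of each donor sex. The median change of these 11 was -0.78 in male and -0.64 in female NP grafts. In male grafts 15 members were called lower (38.5%, against 5.25% of all probe sets) and 2 higher (5.13%, against 5.94% of all probe sets). In female grafts 16 members were called lower (41.0%, against 5.02% of all probe sets) and 2 higher (5.13%, against 5.99%). The median change of the members was -0.44 in male and -0.50 in female grafts, beside -0.07 for all probe sets in males and -0.08 in females. Both comparisons share the 4 NP islet arrays, so the values of the 2 donor sexes are given side by side and not as independent results.

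Esm1 changed most. It encodes endocan, a proteoglycan that endothelial cells secrete and that marks sprouting tip cells (probe set 10407281, chromosome 13). Its levels were 5.8, 5.7 and 6.0 in male NP grafts and 6.1, 6.3 and 5.7 in female NP grafts, against 8.4, 8.6, 8.5 and 8.3 in NP islets. The highest graft array stood at 6.3 and the lowest islet array at 8.3. The fall was 6.13-fold in male grafts (-2.62 ± 0.26, SE, adjusted p = 4.21e-06) and 5.34-fold in female grafts (-2.42 ± 0.26, adjusted p = 1.68e-05).

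Among genes of fenestrae, lipid handling and nitric oxide, 3 of 4 were called lower in grafts of each donor sex. Plvap, the protein of the diaphragms that span fenestrae (probe set 10579525, chromosome 8), stood at 7.6, 7.1 and 7.2 in male NP grafts and 8.2, 7.5 and 6.7 in female NP grafts, against 9.1, 9.1, 9.2 and 8.8 in NP islets. It was 3.36-fold lower in male grafts (-1.75 ± 0.30, adjusted p = 0.000524) and 3.00-fold lower in female grafts (-1.58 ± 0.30, adjusted p = 0.00116). Gpihbp1, which anchors lipoprotein lipase on capillaries, had levels of 6.2, 6.0 and 5.8 in male and 6.1, 6.0 and 5.9 in female NP grafts, against 6.4, 6.6, 6.6 and 6.8 in NP islets. Its change was -0.60 ± 0.12 in either sex, just past the fold minimum. Nos3, the endothelial nitric oxide synthase, read 5.8, 5.6 and 6.0 in male and 5.7, 5.7 and 5.8 in female NP grafts, against 6.6, 6.3, 6.4 and 6.5 in NP islets (-0.65 and -0.72, SE 0.13 each). Nostrin, which guides the traffic of that enzyme, was the exception of the group. It read 6.4, 7.0 and 6.9 in male and 6.4, 7.0 and 7.3 in female NP grafts, against 6.7, 6.7, 6.7 and 6.4 in NP islets, with overlapping groups and changes of 0.14 and 0.28 (adjusted p = 0.597 and 0.264).

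Of 12 junction and surface glycoproteins, the same number, 5, was called lower in each donor sex and 0 higher. Emcn encodes endomucin, a sialomucin of capillaries and veins (probe set 10496359, chromosome 3). It stood at 6.7, 6.4 and 6.2 in male NP grafts and 7.6, 6.8 and 6.7 in female NP grafts, against 8.4, 8.6, 8.5 and 8.4 in NP islets, a fall of 4.12-fold in male (-2.04 ± 0.33, adjusted p = 0.0003) and 2.72-fold in female grafts (-1.44 ± 0.33, adjusted p = 0.00405). Robo4, an endothelial guidance receptor that stabilises vessels (probe set 10584288, chromosome 9), read 5.9, 5.9 and 5.7 in male and 6.6, 6.0 and 5.7 in female NP grafts, against 6.9, 7.1, 7.0 and 6.9 in NP islets (-1.14 and -0.88, SE 0.22 each). Neither gene had a graft array as high as an islet array.

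The other 3 called in this group were Ptprb, Esam and Clec14a. Ptprb, the endothelial receptor tyrosine phosphatase VE-PTP, read 6.6, 6.2 and 6.1 in male and 6.8, 6.4 and 6.4 in female NP grafts, against 7.3, 7.6, 7.4 and 7.3 in NP islets (-1.10 and -0.87, SE 0.27 each). Esam, an adhesion molecule of endothelial tight junctions, read 6.9, 6.4 and 6.8 in male and 7.2, 6.9 and 6.4 in female NP grafts, against 7.5, 7.5, 7.6 and 7.3 in NP islets (-0.78 and -0.64). For Clec14a, a C-type lectin of endothelium, the levels were 5.4, 5.2 and 5.3 in male and 5.9, 5.5 and 4.9 in female NP grafts, against 6.1, 6.1, 6.0 and 5.9 in NP islets (-0.72 and -0.59). Its female graft array 1 equalled the lowest islet array.

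The other members of this group were not called. Cdh5, which encodes VE-cadherin, changed by -0.14 ± 0.38 in male and -0.04 ± 0.38 in female grafts, and Cldn5 by -0.22 and -0.12. Pecam1, the CD31 gene, stood at -0.47 ± 0.33 and -0.57 ± 0.33 (adjusted p = 0.314 and 0.206). Icam2, Cd93 and Ecscr lay between -0.32 and 0.08 in both sexes. Cd34, a sialomucin that blood progenitors and some fibroblasts also carry, was the only member of the group with positive changes above 0.1. It read 8.0, 7.3 and 7.3 in male and 8.2, 8.0 and 6.8 in female NP grafts, against 7.2, 7.3, 7.3 and 7.0 in NP islets, with changes of 0.33 and 0.47 that did not pass (adjusted p = 0.425 and 0.241).

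Among 8 signalling receptors, ligands and adaptors, 3 were called lower in each sex. Tie1, an endothelial receptor tyrosine kinase (probe set 10515771, chromosome 4), read 6.6, 6.1 and 6.3 in male and 7.1, 6.7 and 6.2 in female NP grafts, against 7.5, 7.5, 7.5 and 7.3 in NP islets (-1.12 ± 0.28, adjusted p = 0.00701, and -0.78 ± 0.28, adjusted p = 0.0417). Myct1, a membrane protein of endothelium, read 5.0, 4.8 and 4.8 in male and 5.3, 4.8 and 4.8 in female NP grafts, against 5.8, 5.6, 5.7 and 5.6 in NP islets (-0.81 and -0.71, SE 0.20). Its lowest graft levels lay at the lower quartile of the arrays. Rasip1, a Ras-interacting protein needed for vessel lumens, read 5.9, 5.8 and 5.6 in male and 6.3, 5.6 and 5.8 in female NP grafts, against 6.5, 6.6, 6.4 and 6.4 in NP islets. It was called in male grafts (-0.71 ± 0.16) and fell short of the fold minimum in female grafts (-0.57 ± 0.16, adjusted p = 0.0123).

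Ramp2, the partner protein that makes the calcitonin receptor-like receptor respond to adrenomedullin, was called in the other donor sex. It read 6.9, 6.8 and 6.7 in male and 6.9, 6.9 and 6.3 in female NP grafts, against 7.3, 7.4, 7.3 and 7.4 in NP islets, with a call in female grafts (-0.65 ± 0.19, adjusted p = 0.0194) and a change short of the fold minimum in male grafts (-0.55 ± 0.19, adjusted p = 0.0447). For Aplnr, the apelin receptor, the levels were 6.1, 5.8 and 5.8 in male and 6.6, 6.3 and 5.7 in female NP grafts, against 6.3, 6.2, 6.3 and 6.3 in NP islets, and the change was -0.38 in male and -0.07 in female grafts. Its ligand gene Apln changed by -0.37 and -0.23, endoglin (Eng) by -0.45 and -0.42, and the sphingosine-1-phosphate receptor gene S1pr1 by 0.00 and -0.50. Aplnr, Apln, Eng and S1pr1 were not called.

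Of 5 secreted and matrix proteins, Esm1, Egfl7 and Mmrn2 were called lower in both sexes. Egfl7, a matrix protein of growing vessels, read 7.1, 6.6 and 6.8 in male and 7.7, 7.0 and 6.5 in female NP grafts, against 7.7, 7.9, 7.8 and 7.8 in NP islets (-0.97 ± 0.27, adjusted p = 0.0145, and -0.73 ± 0.27, adjusted p = 0.0499). Female graft array 1 equalled the lowest islet array. Mmrn2, a matrix glycoprotein that binds Clec14a and Cd93, read 6.5, 6.3 and 6.0 in male and 6.9, 6.3 and 6.2 in female NP grafts, against 7.1, 7.2, 7.3 and 7.0 in NP islets (-0.88 and -0.68, SE 0.25). Vwf, the von Willebrand factor stored by endothelium of larger vessels, changed by -0.35 ± 0.18 and 0.08 ± 0.18 and was not called.

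Of 7 transcription factors, 1 was called lower and 1 higher in male NP grafts, and 2 lower and 1 higher in female NP grafts. Sox18 read 7.0, 6.5 and 6.5 in male and 6.9, 6.6 and 6.5 in female NP grafts, against 7.3, 7.2, 7.5 and 7.1 in NP islets, and was called lower in both sexes (-0.61 ± 0.18 each). Gata2 read 5.9, 5.9 and 5.8 in male and 5.8, 5.6 and 5.5 in female NP grafts, against 6.2, 6.4, 6.4 and 6.4 in NP islets. It was called in female grafts (-0.72 ± 0.10, adjusted p = 0.00011) and passed the adjusted p but not the fold minimum in male grafts (-0.48 ± 0.10, adjusted p = 0.00174). Sox7 did so in both (-0.33 and -0.57). Erg, the ETS factor most specific to endothelium, changed by -0.44 ± 0.19 and -0.31 ± 0.19, Sox17 by -0.09 and -0.26, and Tal1 by -0.23 in each sex, and none was called.

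Fli1 rose, against the direction of its relative Erg. This ETS factor is also made by blood cells (probe set 10592067, chromosome 9). Its level was 7.2 in each of the 3 male NP grafts and 7.1, 7.1 and 6.6 in female NP grafts, against 6.1, 6.2, 6.2 and 6.0 in NP islets. The change was 1.07 ± 0.22 in male (adjusted p = 0.00225) and 0.81 ± 0.22 in female grafts (adjusted p = 0.0133). All 15 leukocyte genes were called higher in male NP grafts (against 5.94% of all probe sets) and 12 of 15 in female NP grafts (against 5.99%). The part of leukocytes in the level of Fli1 was not tested.

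Vcam1 rose most of all members. It encodes an adhesion molecule that binds integrins of leukocytes and appears on activated endothelium and on some stromal and kidney cells (probe set 10501608, chromosome 3). Its levels were 7.7, 7.7 and 7.6 in male NP grafts and 7.9, 7.8 and 7.6 in female NP grafts, against 5.4, 5.7, 5.6 and 5.6 in NP islets. It was 4.26-fold higher in male grafts (2.09 ± 0.25, adjusted p = 2.09e-05) and 4.57-fold higher in female grafts (2.19 ± 0.25, adjusted p = 2.32e-05). Sele, the gene of E-selectin, which slows leukocytes on inflamed vessels, did not follow it. It read 5.5, 5.3 and 5.3 in male and 5.5, 5.4 and 5.0 in female NP grafts, against 5.5 in each of the 4 NP islet arrays, with changes of -0.13 and -0.20 that did not pass.

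Leaving out 1 array at a time tested these calls. In male NP grafts 12 of the 17 calls held in every removal: Esm1, Emcn, Plvap, Robo4, Tie1, Ptprb, Myct1, Esam, Clec14a, Rasip1, Fli1 and Vcam1. The other 5 were lost in at least 1 removal: Sox18 without NP islet array 3 or male NP array 2 or 3 (adjusted p = 0.0577 to 0.0876), Egfl7 and Nos3 without male array 2 (-0.85 and -0.55), Mmrn2 without male array 3 (-0.75), and Gpihbp1 without male array 3 or islet array 4 (-0.50 and -0.53). In female NP grafts 7 of the 18 calls held in every removal: Esm1, Plvap, Emcn, Robo4, Nos3, Gata2 and Vcam1. The count of members called was 9 without female NP array 3, 11 without array 2 and 19 without array 1, against 18 with all arrays, and the median change of the members was -0.33 without array 3.

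Tie1, Egfl7 and Mmrn2 were each lost in 6 of 7 removals in female NP grafts, with adjusted p between 0.0602 and 0.197 for Tie1, 0.0656 and 0.26 for Egfl7, and 0.0646 and 0.17 for Mmrn2. Clec14a was lost in 5 removals (adjusted p = 0.0557 to 0.214), without female array 2 or 3 or islet array 1, 2 or 3. Female NP array 3 also set the size of 3 changes, since without it Clec14a changed by -0.33, Egfl7 by -0.45 and Esam by -0.43. Ptprb was lost without female array 2 or 3 or islet array 2, and Sox18 without female array 2 or 3 or islet array 3. The call of Myct1 was lost without female array 2 or 3 (adjusted p = 0.0599 and 0.0621), that of Fli1 without array 1 or 2 (0.0507 and 0.0532), and those of Esam and Ramp2 without array 3 (0.108 and 0.117). Gpihbp1 dropped under the fold minimum without female array 3 or islet array 4. No called change turned its sign in any removal.

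**Figure D2:**
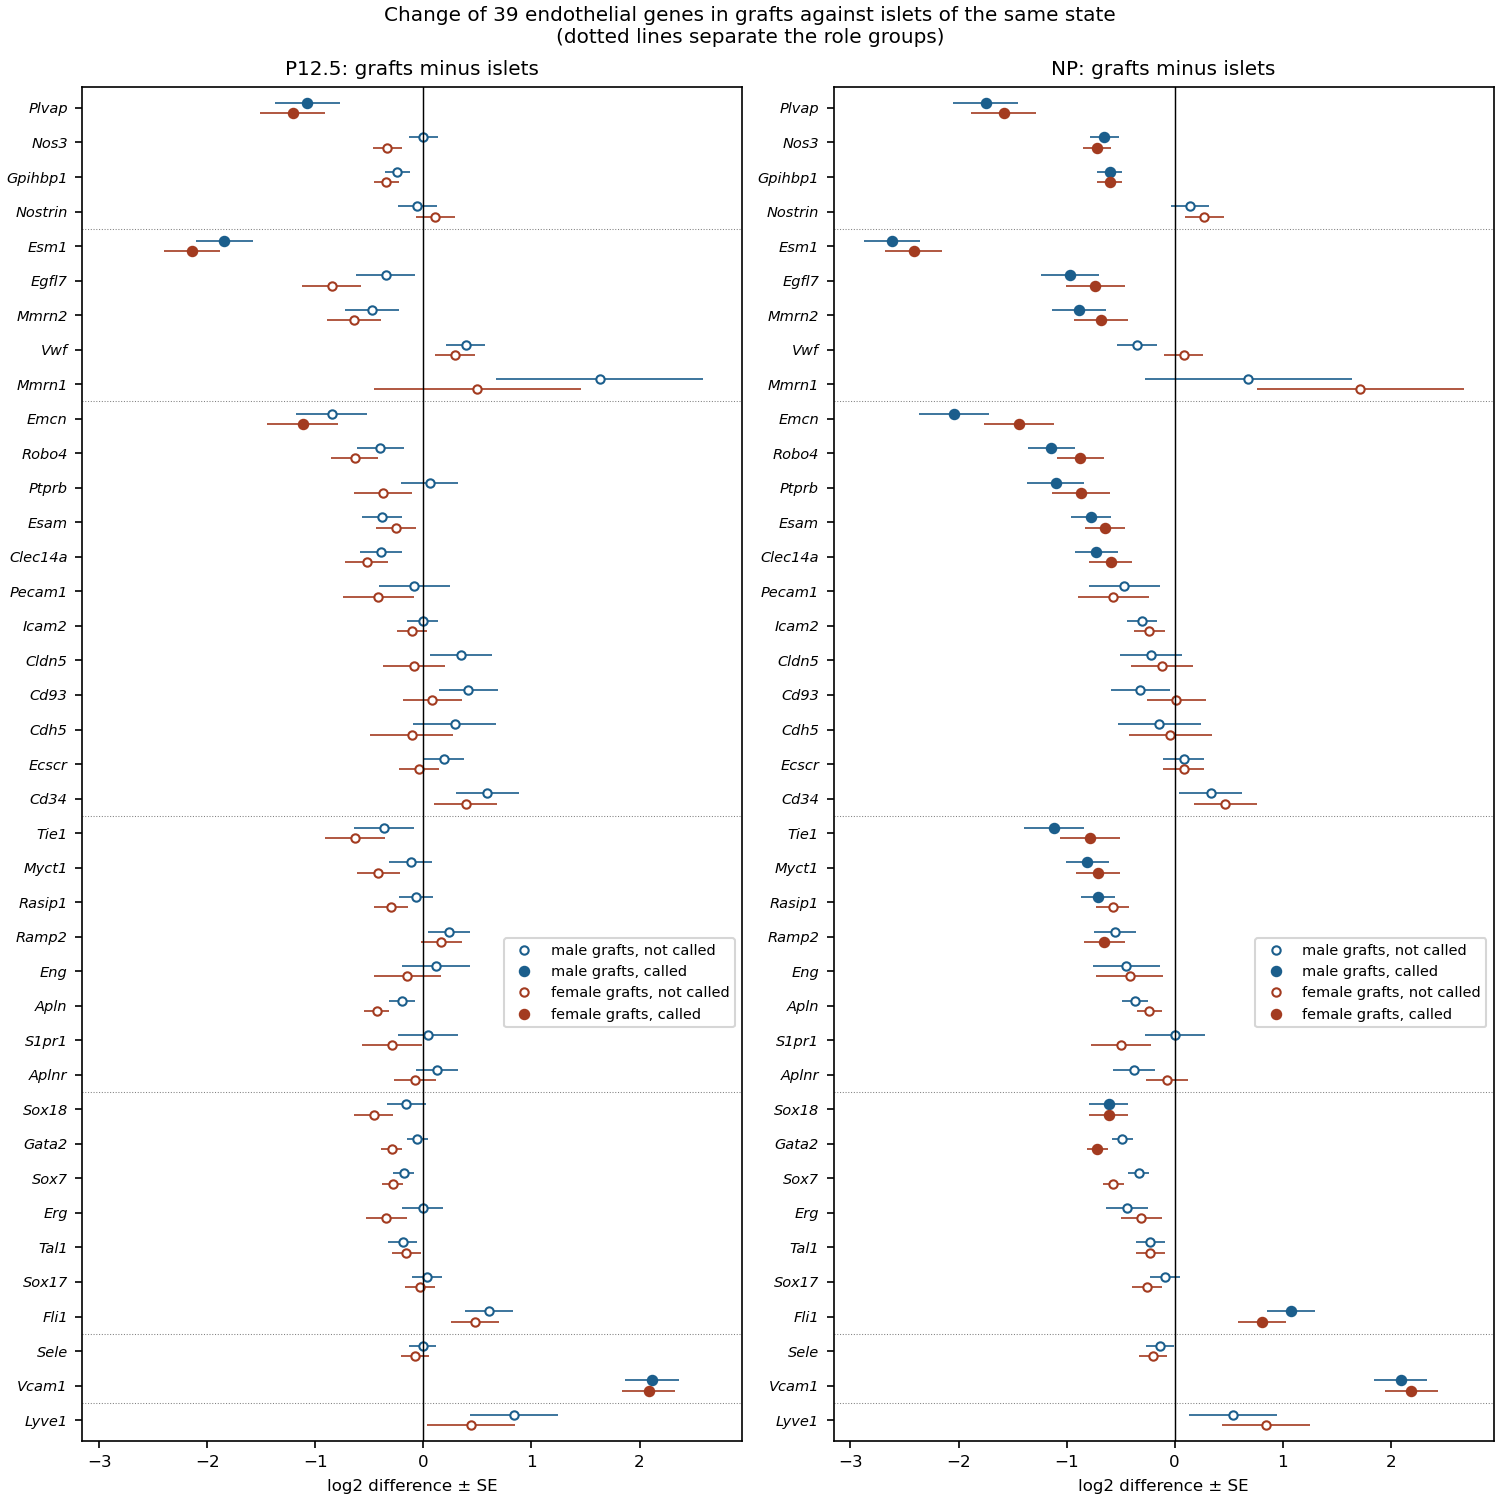
Log2 difference, grafts minus islets of the same state, ± its standard error from limma (x axis) for the 39 members (y axis, dotted lines between role groups), at P12.5 (left) and in the NP state (right), for male (blue) and female (red) grafts; filled points were called. Esm1, Plvap and Vcam1 were called in all 4 comparisons, and most other filled points stand in the NP panel.

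The promoters of the 4 genes that fell most in NP grafts of both sexes and that the RefSeq promoter table (build GRCm38.p6) holds are shown for the sequence upstream of their starts, since ETS factors bind a GGAA core and 2 members, Erg and Fli1, are such factors. Each line gives the 250 bases before the annotated transcription start, 5′ to 3′ on the gene's strand, with GGAA and its reverse complement TTCC in capitals.
Esm1, chr13:113209409-113209658, plus strand: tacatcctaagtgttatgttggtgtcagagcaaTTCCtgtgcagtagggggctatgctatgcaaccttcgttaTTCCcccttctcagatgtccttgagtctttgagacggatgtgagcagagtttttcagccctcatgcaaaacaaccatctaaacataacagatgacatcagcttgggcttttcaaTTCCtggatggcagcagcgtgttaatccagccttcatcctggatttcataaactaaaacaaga
Emcn, chr3:137340828-137341077, plus strand: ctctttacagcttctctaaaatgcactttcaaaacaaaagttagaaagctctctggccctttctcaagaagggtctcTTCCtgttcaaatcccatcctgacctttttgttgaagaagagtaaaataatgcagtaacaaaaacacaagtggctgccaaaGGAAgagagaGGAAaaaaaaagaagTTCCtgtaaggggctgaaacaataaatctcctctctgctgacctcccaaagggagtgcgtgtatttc
Robo4, chr9:37401722-37401971, plus strand: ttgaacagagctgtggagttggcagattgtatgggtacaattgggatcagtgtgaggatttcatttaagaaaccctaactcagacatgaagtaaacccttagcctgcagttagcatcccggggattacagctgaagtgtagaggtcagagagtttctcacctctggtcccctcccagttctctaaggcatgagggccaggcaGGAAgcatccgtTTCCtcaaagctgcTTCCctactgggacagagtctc
Tie1, chr4:118489850-118490099, minus strand: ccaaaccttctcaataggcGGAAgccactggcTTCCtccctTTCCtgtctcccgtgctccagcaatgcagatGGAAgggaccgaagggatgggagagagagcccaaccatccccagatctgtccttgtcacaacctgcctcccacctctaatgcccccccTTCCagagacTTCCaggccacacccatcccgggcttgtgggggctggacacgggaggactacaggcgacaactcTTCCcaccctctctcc

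The core occurred 3 times in the window of Esm1, 4 times in that of Emcn, 3 times in that of Robo4 and 7 times in that of Tie1, on either strand. It is too short to set the members apart: 92% of the 25 windows of the 19 members in the table held GGAA, against 93.4% of all 32851 windows. The longer AGGAA, which contains the core, stood in 76% against 60.3%, and CAGGAA, which contains both, in 60% against 25.7%. A SOX core, ACAAT, stood in 24% against 27.7%, a GATA core, GATAA, in 24% against 22.6%, and AGATAA, which contains it, in 12% against 9.99%. TATAAA stood in 12% against 12.4% and the NF-kappaB type motif GGNNTTTCC in 12% against 4.93%. Both strands were searched, 8 motifs were tried, members with several starts contribute several windows, and no test was made, so these shares describe letters and not binding sites.

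At P12.5 fewer members were called between grafts and islets. In male P12.5 grafts 2 were lower (5.13%, against 2.56% of all probe sets) and 1 was higher (2.56%, against 4.7%). In female P12.5 grafts 3 were lower (7.69%, against 1.22% of all probe sets) and 1 was higher (2.56%, against 2.83%). The median change of the members was -0.01 in male and -0.28 in female grafts, beside -0.08 and -0.07 for all probe sets. Single arrays moved these medians: that of males was 0.10 without male array 2 and -0.20 without male array 3, and that of females was -0.08 without female array 1. Both comparisons share the 4 P12.5 islet arrays.

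Esm1 was again lower, at 6.8, 5.8 and 6.4 in male P12.5 grafts and 5.2, 6.6 and 6.3 in female P12.5 grafts, against 8.1, 8.0, 8.4 and 8.2 in P12.5 islets (-1.84 ± 0.26, adjusted p = 0.000234, and -2.14 ± 0.26, adjusted p = 7.14e-05). Plvap read 7.8, 7.4 and 8.2 in male and 6.9, 7.9 and 8.2 in female P12.5 grafts, against 8.9, 8.9, 8.9 and 8.8 in P12.5 islets (-1.07 ± 0.30, adjusted p = 0.0236, and -1.21 ± 0.30, adjusted p = 0.022). Emcn stood at 7.6, 7.1 and 8.1 in male and 6.2, 7.8 and 8.0 in female P12.5 grafts, against 8.5, 8.5, 8.5 and 8.3 in P12.5 islets. It was called in female grafts (-1.12 ± 0.33, adjusted p = 0.0486) and not in male grafts (-0.85 ± 0.33, adjusted p = 0.0898). The levels of these 3 genes in every P12.5 graft lay under those of all P12.5 islets.

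Vcam1 was higher again, at 7.5, 7.4 and 7.8 in male and 6.7, 7.5 and 8.4 in female P12.5 grafts, against 5.6, 5.5, 5.5 and 5.2 in P12.5 islets (4.34-fold, adjusted p = 3.09e-05, and 4.24-fold, adjusted p = 4.92e-05). Its change thus lay between 4.24-fold and 4.57-fold in all 4 comparisons of grafts with islets. Fli1 was not called at P12.5, at 6.5, 6.4 and 7.3 in male and 6.0, 6.6 and 7.2 in female grafts, against 6.1, 6.1, 6.2 and 6.1 in islets (0.61 and 0.47, SE 0.22).

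The calls of Esm1 and Vcam1 held without any single array at P12.5 in both donor sexes. Plvap lost its call without male array 1 or 2 or islet array 3 in the comparison of males (adjusted p = 0.0504 to 0.0799) and without female array 1 in that of females (-0.83, adjusted p = 0.108). Emcn lost its call in female grafts in 5 of 7 removals (adjusted p = 0.084 to 0.2), namely without any 1 islet array or female array 1, and without that graft array its change was -0.55. The members not called at P12.5 had changes between -0.85 and 1.63 in male grafts and between -0.85 and 0.50 in female grafts. The 1.63 was that of Mmrn1, with 1 male array at 8.7 and the others at 3.8. Levels overlapped for 31 of 39 members between male grafts and islets and for 26 of 39 between female grafts and islets. The share of all genes is not given, so these counts only describe the members.

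Whether the difference between P12.5 and NP was itself different in female grafts and in islets was tested as the interaction of transplantation with pregnancy. It called 0 members, against 0.0507% of all probe sets. The lowest adjusted p among members was 0.202, that of Gata2 (0.42 ± 0.14), followed by Ramp2 (0.82 ± 0.27, adjusted p = 0.215), the 2 members with an unadjusted p under 0.05. For female grafts, a difference in any member's change between P12.5 and the NP state was therefore not shown, and for male grafts it was not tested.

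In islets that were not transplanted, limma called 0 members between P12.5 and NP mice, against 0.724% of all probe sets. An estimate for each gene was precise here, with a median SE of 0.09, and 7 of 39 had an unadjusted p under 0.05. The median change was -0.05 and the changes ran between -0.40 and 0.20. Lyve1 had the most negative change, with levels of 6.8, 6.8, 6.4 and 6.5 in P12.5 islets, against 7.1, 6.8, 7.1 and 7.1 in NP islets (-0.40 ± 0.12, adjusted p = 0.179). Apln had the most positive one, at 6.7 in each of the 4 P12.5 islet arrays, against 6.2, 6.5, 6.6 and 6.7 in NP islets (0.20 ± 0.10, adjusted p = 0.514). Ptprb alone separated the groups, at 7.2, 7.2, 7.1 and 7.2 in P12.5 islets, against 7.3, 7.6, 7.4 and 7.3 in NP islets (-0.23 ± 0.08, adjusted p = 0.308). The share of all genes that did so is not given.

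**Figure D3:**
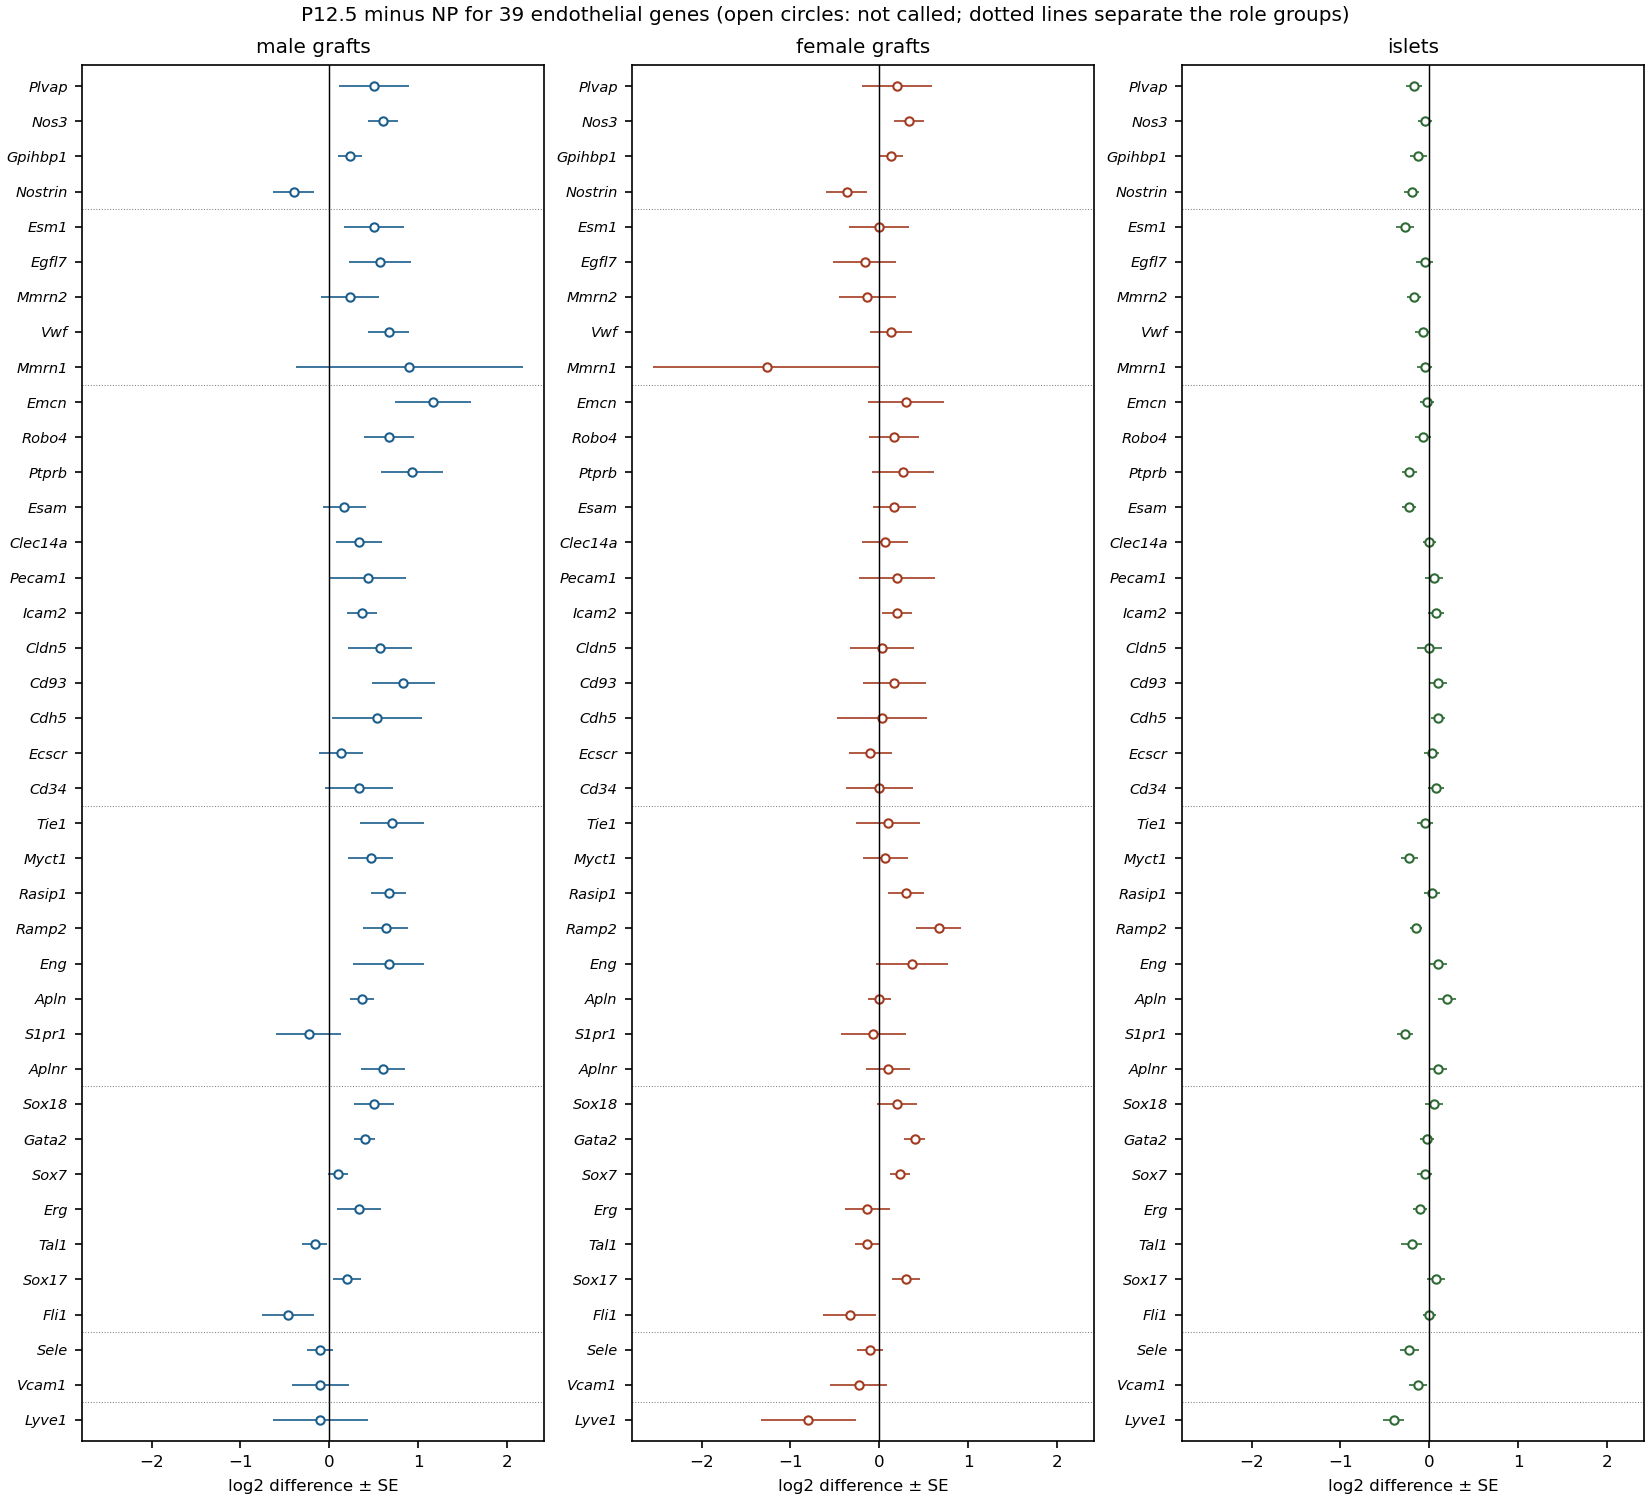
Log2 difference, P12.5 minus NP, ± its standard error from limma (x axis) for the 39 members (y axis, dotted lines between role groups) in male grafts, female grafts and islets. No member was called in any of the 3 panels; in male grafts 32 of 39 points lie above 0, and the errors of grafts are larger than those of islets.

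Between grafts of P12.5 and of NP hosts no member was called in either donor sex. In male grafts 32 members had a positive change and 7 a negative one, with a median of 0.43, beside 0.00 for all probe sets. By limma, 0 members were called, against 0.932% of all probe sets, and 12 had an unadjusted p under 0.05. For 11 members all 3 male P12.5 arrays lay above all 3 male NP arrays, a count without the share of all probe sets. The 11 are thus only described. Emcn was among the 11, at 7.6, 7.1 and 8.1 in male P12.5 grafts, against 6.7, 6.4 and 6.2 in male NP grafts (1.17 ± 0.43, adjusted p = 0.179). So were Ptprb (0.93 ± 0.35, adjusted p = 0.18) and Cd93 (0.83 ± 0.35, adjusted p = 0.225). The lowest adjusted p was that of Nos3, at 6.4, 6.2 and 6.6 in male P12.5 grafts, against 5.8, 5.6 and 6.0 in male NP grafts (0.60 ± 0.17, adjusted p = 0.102).

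One array carried much of this shift. Without male P12.5 array 3 the median change of the members was 0.22, and it lay between 0.35 and 0.65 when any other array was left out. With all 20 arrays in 1 fit, Nos3 and Rasip1 were called (adjusted p = 0.0205 and 0.0279). The mean of the 15 leukocyte genes ran the other way in male grafts, at 6.9 to 7.4 in P12.5 arrays, against 7.4 to 7.8 in NP arrays. Of the 15, 3 were called lower at P12.5, against 0.932% of all probe sets called in either direction. The fall was not common to the list. Group means were 4.43 at P12.5 and 5.97 in NP grafts for Ms4a1 and 6.23 and 7.63 for Cd2. They were 8.73 and 8.63 for Cd68 and 6.93 and 6.53 for Fcgr1. The kidney tubule mean was 6.3 to 8.1 in male P12.5 arrays, against 6.2 to 8.0 in male NP arrays.

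In female grafts 24 members had a positive change and 12 a negative one between P12.5 and NP hosts, with a median of 0.10, beside 0.03 for all probe sets. By limma, 0 members were called, against 1.7% of all probe sets, and 2 had an unadjusted p under 0.05. They were Gata2, at 5.9, 6.0 and 6.2 in female P12.5 grafts, against 5.8, 5.6 and 5.5 in female NP grafts (0.40 ± 0.12, adjusted p = 0.0952), and Ramp2 (0.67 ± 0.25, adjusted p = 0.165). The median was -0.07 without female P12.5 array 3 and -0.12 without female NP array 3, so its sign rested on single arrays. Kidney tubule genes had a median change of -1.40 in the same comparison, with 0 of 27 called, and their mean was 5.8 to 7.1 in female P12.5 arrays, against 7.7 to 8.3 in female NP arrays.

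With both donor sexes together (6 against 6 arrays) 1 member was called higher (2.56%, against 1.97% of all probe sets) and 0 lower (against 2% of all probe sets), which is a share near the background. The member was Ramp2 (probe set 10381298, chromosome 11). It read 7.4, 7.0 and 7.9 in male P12.5 and 6.9, 7.6 and 7.6 in female P12.5 grafts, against 6.9, 6.8 and 6.7 in male NP and 6.9, 6.9 and 6.3 in female NP grafts (0.65 ± 0.18, adjusted p = 0.0379). The groups touched at 6.9. The call was lost in 8 of 12 removals of an array (changes of 0.53 to 0.70, adjusted p = 0.0502 to 0.0821), which were those of array 2 or 3 of female P12.5, female NP and male NP grafts and of array 1 or 3 of male P12.5 grafts. It was also lost with the kidney tubule level as a covariate (0.68, adjusted p = 0.0769). In islets Ramp2 did not pass, at 7.3, 7.2, 7.2 and 7.1 in P12.5 islets, against 7.3, 7.4, 7.3 and 7.4 in NP islets (-0.15 ± 0.07, adjusted p = 0.448).

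A further 3 members passed the adjusted p in grafts of both sexes and stayed under the fold minimum. Gata2 changed by 0.40 ± 0.08 (adjusted p = 0.0143), Nos3 by 0.47 ± 0.12 (adjusted p = 0.0283) and Rasip1 by 0.48 ± 0.14 (adjusted p = 0.0438). Each of the 3 had lower readings in NP grafts than in NP islets. Emcn had the largest change (0.73 ± 0.31) without passing (adjusted p = 0.131). Of the 39 members, 31 had a positive change and 8 a negative one, among them Lyve1 (-0.45), Fli1 (-0.40), Nostrin (-0.38) and Vcam1 (-0.17). The groups of all 39 overlapped, a count given without the share of all genes.

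Grafts of male and female donors did not differ in any member past the threshold. In the NP state 0 members were called, against 0.0141% of all probe sets, and the median change, male minus female, was -0.13, with changes between -1.03 (Mmrn1, SE 1.28) and 0.50 (S1pr1, SE 0.36). The median was 0.07 without female NP array 1. At P12.5 0 members were called, against 0.0113%, with a median of 0.23 and 36 of 39 changes positive. That median was 0.02 without male P12.5 array 3 and -0.02 without female P12.5 array 1, so the common sign rested on these arrays. No member reached an unadjusted p under 0.05 in either state. Whether the response to pregnancy differed by donor sex was tested as an interaction, which called 0 members and 0% of all probe sets, with 0 members at an unadjusted p under 0.05 and a lowest adjusted p of 0.955 among members. The median SE of a member's change was 0.26 with 3 arrays a group, so differences near 1.5-fold were poorly resolved.

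**Figure D4:**
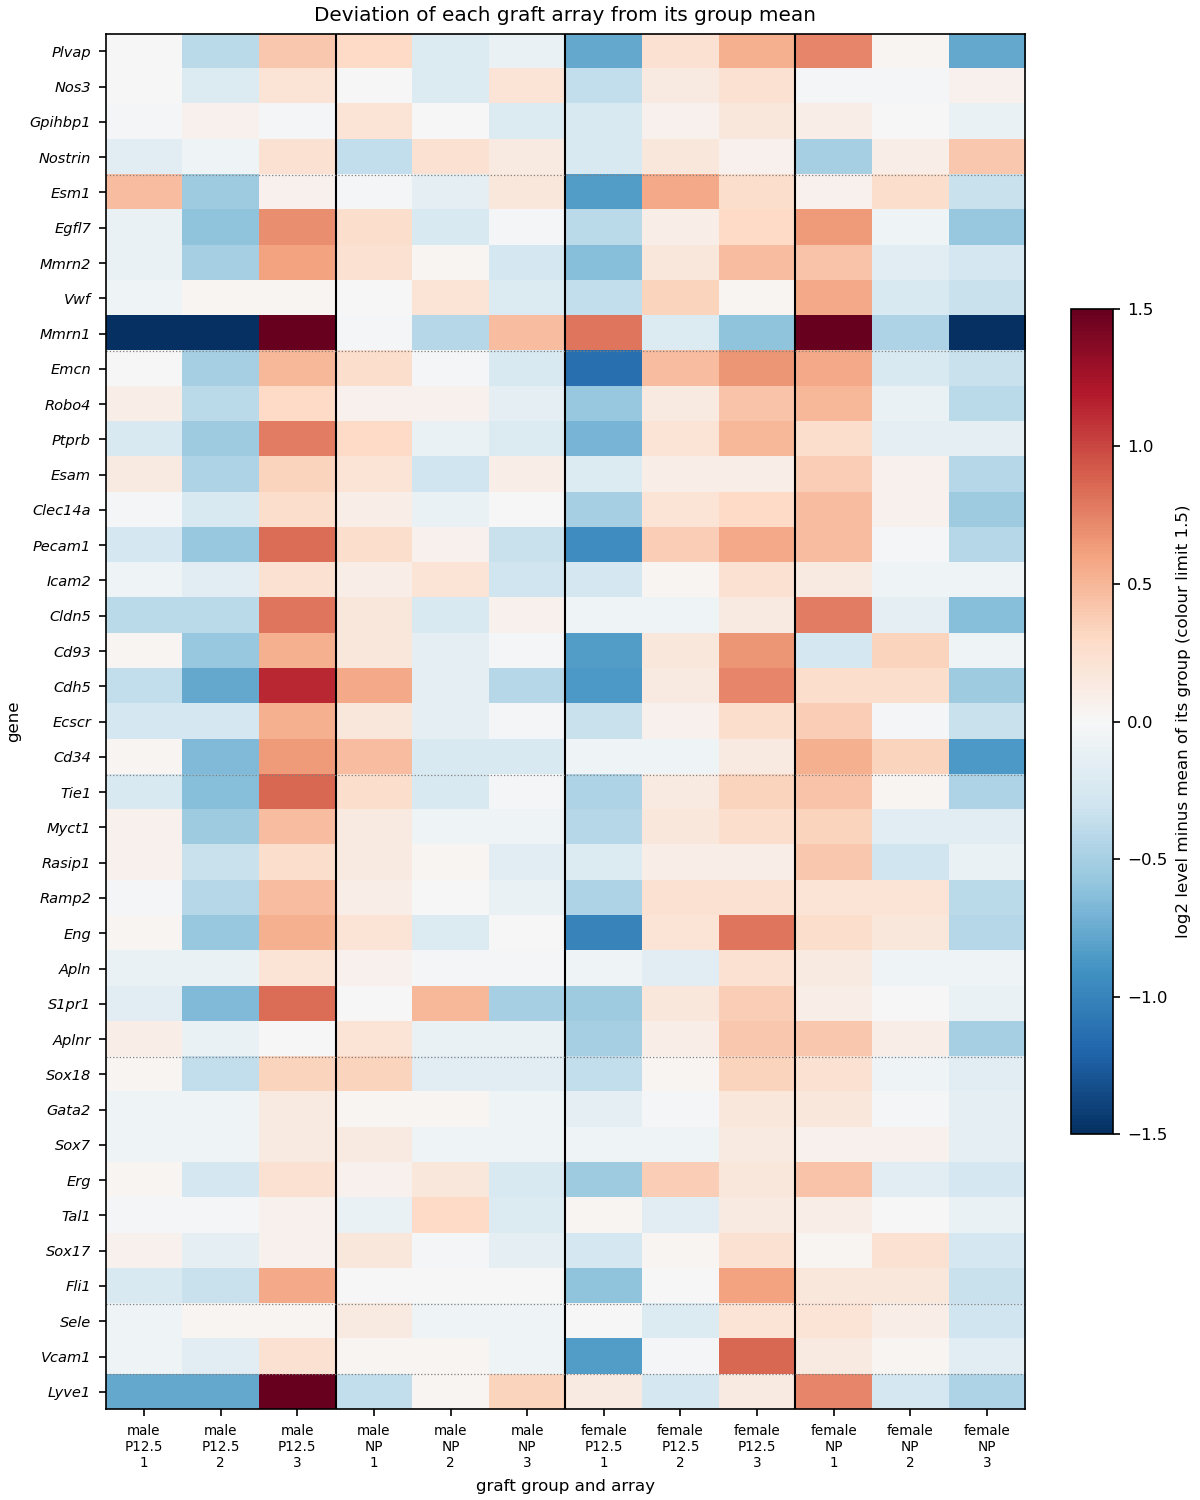
Log2 level of each of the 39 members (rows, dotted lines between role groups) in each of the 12 graft arrays (columns, lines between groups) minus the mean of its group; red is above and blue below, and colours stop at 1.5. Male P12.5 array 3, female P12.5 array 3 and female NP array 1 are red for most rows, and male P12.5 array 2, female P12.5 array 1 and female NP array 3 are blue.

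Within each group of grafts the endothelial genes varied together from array to array. In male P12.5 grafts array 3 had the highest or tied highest level of 36 of 39 members and array 2 the lowest of 35. In male NP grafts array 1 was highest for 29. In female P12.5 grafts array 3 was highest for 34 and array 1 lowest for 34, and in female NP grafts array 1 was highest for 34 and array 3 lowest for 35. The median SD of a member was 0.42 in male P12.5, 0.20 in male NP, 0.38 in female P12.5 and 0.36 in female NP grafts, beside 0.15 for all 19938 genes in each of these groups. In islets it was 0.13 in either state, beside 0.10 for all genes in P12.5 and 0.13 in NP islets. The endothelial genes thus varied more than genes overall in all 4 groups of grafts and as much as genes overall in NP islets.

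The mean over the 39 members was 6.58, 6.31 and 7.18 in male P12.5 arrays 1 to 3, 6.44, 6.27 and 6.23 in male NP arrays, 6.05, 6.56 and 6.76 in female P12.5 arrays and 6.77, 6.42 and 6.08 in female NP arrays, against 6.62 to 6.72 in P12.5 islets and 6.71 to 6.79 in NP islets. On this mean, male P12.5 array 3, female P12.5 array 3 and female NP array 1 reached the islet means and the other graft arrays fell short. The mean of female NP array 1 includes Mmrn1 at 8.0, against 3.7 to 4.0 in NP islets. Over the 11 endothelium markers, female NP array 1 stood at 7.34, below the 7.45 to 7.59 of NP islets. Male and female P12.5 array 3 stood at 7.84 and 7.39, against 7.35 to 7.55 in P12.5 islets. In all 4 groups of grafts the array with the highest mean of the members also had the highest leukocyte mean, and in 3 of 4 (not female NP) the highest mean of mural cells and fibroblasts. Its islet endocrine mean was the lowest of the group in all 4. The kidney tubule mean was highest in that array only in female NP grafts and lowest there in male NP grafts. These values moved with the endothelial genes, and their part was not tested.

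Mmrn1 and Lyve1 were highest in male P12.5 array 3 and female NP array 1. Most members shared this within the groups, with 36 and 34 of 39 highest or tied in these arrays. Cldn5 was also highest of all arrays there, at 7.6 and 7.1, against at most 6.7 elsewhere. Mmrn1 encodes multimerin 1, a protein of platelets and of lymphatic endothelium, and Lyve1 a hyaluronan receptor of lymphatic and sinusoidal endothelium that some macrophages also carry. Mmrn1 read 3.8, 3.8 and 8.7 in male P12.5 grafts, 4.5, 4.1 and 5.0 in male NP grafts, 5.1, 4.1 and 3.7 in female P12.5 grafts and 8.0, 5.1 and 3.6 in female NP grafts, against 3.7 to 3.9 in P12.5 islets and 3.7 to 4.0 in NP islets. Male P12.5 array 3 and female NP array 1 stood far above every other array, the highest of which read 5.1.

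Lyve1 was highest in the same 2 arrays. It read 6.7, 6.7 and 9.0 in male P12.5 grafts, 7.2, 7.6 and 7.9 in male NP grafts, 7.2, 6.8 and 7.2 in female P12.5 grafts and 8.6, 7.6 and 7.4 in female NP grafts, against 6.4 to 6.8 in P12.5 islets and 6.8 to 7.1 in NP islets. Neither gene was called in any comparison, with SEs of 0.41 for Lyve1 and 0.96 for Mmrn1 between grafts and islets. Reln, which lymphatic endothelium also makes, followed them, at 7.6 in male P12.5 array 3 and 6.9 in female NP array 1, against 5.4 to 5.9 in the other graft arrays and 5.6 to 6.4 in islets. Prox1, the lymphatic transcription factor, did not: it read 7.8 and 7.7 in these arrays, against 7.4 to 8.4 in the other grafts, and islet endocrine cells make it too. Other lymphatic genes followed only in part. Pdpn (9.3), Nrp2 (8.3), Itga9 (8.1) and Foxc2 (6.8) were highest of all grafts in male P12.5 array 3. In female NP array 1 Pdpn was highest of its group, at 8.5. Itga9 read 6.7 there and Nrp2 7.0, under the 7.2 and 7.1 of female NP array 2. Foxc2 read 5.9, as in array 2, and Stab2 5.7, under the 5.8 of array 3. Mean levels of 10 genes of platelets, mast cells and erythroid cells were 6.1 in male P12.5 array 3 and 5.7 in female NP array 1, against 5.4 to 5.9 in the other grafts.

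**Figure D5:**
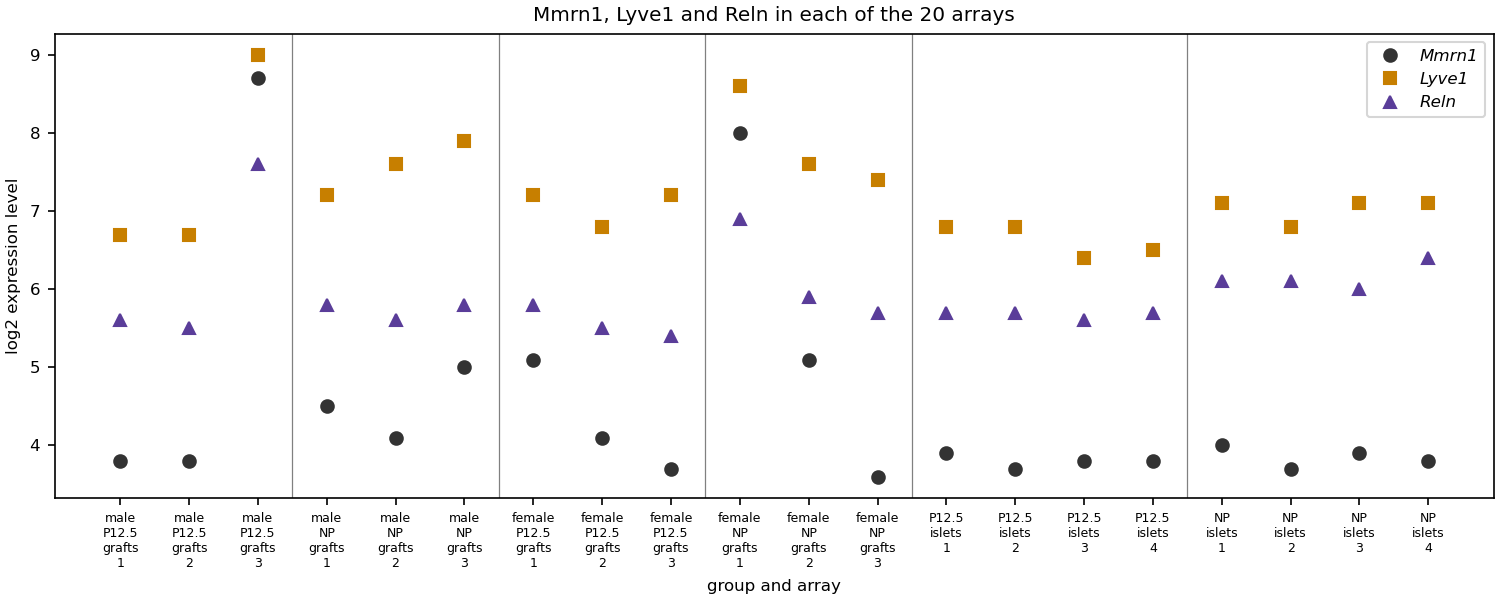
Log2 expression level (y axis) of Mmrn1 (circles), Lyve1 (squares) and Reln (triangles) in each of the 20 arrays (x axis, lines between groups). Male P12.5 array 3 and female NP array 1 are the highest arrays for all 3 genes, with Mmrn1 at 8.7 and 8.0, against at most 5.1 elsewhere.

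Without those 2 arrays, a choice made after their values were seen, the number of members called was 20 between female NP grafts and NP islets, against 18 with them, and 4 between male P12.5 grafts and P12.5 islets, against 3. In grafts of both sexes 1 member was called between P12.5 and NP, Lyve1 (-0.65 ± 0.15, adjusted p = 0.0342), while Ramp2 no longer passed (0.58 ± 0.18, adjusted p = 0.0739). Since the arrays were left out for a level that goes with Lyve1, that call is not an independent result.

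A wider list of 46 other endothelial genes moved in both directions. Against islets of the same state, 6 were called higher and 2 lower in male P12.5 grafts, 6 and 11 in male NP grafts, 3 and 4 in female P12.5 grafts, and 5 and 9 in female NP grafts. Of all probe sets, 4.7% were called higher and 2.56% lower in male P12.5 grafts, 5.94% and 5.25% in male NP grafts, 2.83% and 1.22% in female P12.5 grafts, and 5.99% and 5.02% in female NP grafts, so the 2 lower genes of male P12.5 grafts are a share near the background. Their medians were 0.10, -0.26, -0.13 and -0.26 in the same order, beside -0.07 to -0.08 for all probe sets. The largest changes upward were those of Cd36, a fatty acid transporter, which rose on the log2 scale by 2.41 in male P12.5, 2.46 in male NP, 2.01 in female P12.5 and 2.79 in female NP grafts. Aqp1, a water channel, rose by 1.46 in male P12.5, 1.64 in male NP and 2.11 in female NP grafts, and Cav1, the coat gene of caveolae, by 1.48 in male P12.5, 1.20 in male NP, 1.25 in female P12.5 and 1.23 in female NP grafts. Fabp4, a lipid chaperone, rose by 1.32 in female NP grafts and Icam1, an adhesion molecule for leukocytes, by 0.92 in female P12.5 grafts. Kidney, fat, stromal or blood cells express these 5 as well. Cyyr1, which encodes a little-studied membrane protein, fell by 0.95 in male P12.5, by 1.42 in male NP, by 0.92 in female P12.5 and by 1.15 in female NP grafts. The calls of Cd36 held in every removal of an array. Those lost without 1 graft array were Aqp1 in male P12.5 grafts (1.07 without array 3, adjusted p = 0.0911), Cav1 in male NP grafts (1.00 without array 1, adjusted p = 0.0517), and Cyyr1 (-0.65 without array 1, adjusted p = 0.0563) and Icam1 (0.65 without array 3, adjusted p = 0.0734) in female P12.5 grafts. Cav1 in female P12.5 and Fabp4 in female NP grafts were each lost in 4 of 7 removals (adjusted p up to 0.0852 for Cav1 and 0.113 for Fabp4).

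Of 7 genes of lymphatic endothelium, Pdpn, which stromal cells and podocytes also make, was called higher in all 4 comparisons of grafts with islets (2.53 in male P12.5, 1.97 in male NP, 2.23 in female P12.5 and 2.00 in female NP grafts). Nrp2 (1.33), Itga9 (1.05) and Foxc2 (0.62) were called higher in male P12.5 grafts, and male P12.5 array 3 carried these calls. Nrp2 read 6.9, 6.5 and 8.3 in male P12.5 grafts, against 5.8 to 6.0 in P12.5 islets, and without array 3 its change was 0.80 (adjusted p = 0.13), that of Itga9 0.70 (adjusted p = 0.136) and that of Foxc2 0.40 (adjusted p = 0.132). Prox1 was called lower in male NP grafts (-0.61), a call lost in 3 of 7 removals with changes of -0.57 and -0.58. Of 6 podocyte genes, Podxl, which endothelium shares, was called lower in male and female NP grafts (-1.50 and -1.17), and Wt1 was called higher in all 4 comparisons (0.73 to 1.55). The calls of Pdpn and Podxl held in every removal, and those of Wt1 did so at P12.5. In NP grafts Wt1 lost its call in 3 of 7 removals in each donor sex, with changes of 0.45 without male NP array 1 and 0.50 without female NP array 1.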

How the data were processed

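The labels mark the arrays as biological replicates of 6 groups, 12 graft arrays and 8 islet arrays, hybridised to Affymetrix MoGene 1.0 ST arrays. The deposited values are log2 expression levels that the authors made by robust multi-array average (RMA) in aroma.affymetrix: background subtraction, quantile normalization and a summary per probe set. They were rounded to 1 decimal, so differences near 0.1 are not resolved, and quantile normalization gives all arrays nearly the same distribution. Depth is no property of arrays, and the number of arrays limits the precision.

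Probe sets were named through the platform annotation: of 35511, 21789 carried 1 gene symbol, 1621 several and 12101 none. Probe sets with several symbols were used for no gene, and where a gene had several probe sets the one with the highest mean was taken, which did not arise among the members. Ramp2 also stands on a probe set with several symbols, not used here.

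Each comparison was fitted with limma (lmFit and eBayes, version 3.58.1 in R 4.3.3) without a replicate block. Comparisons of grafts with islets and the interaction of transplantation with pregnancy used all 20 arrays, so that grafts and islets shared 1 estimate of the spread although the members varied more in grafts. Comparisons among grafts used the 12 graft arrays and those of islets the 8 islet arrays. Grafts of both sexes were compared as the mean of the 2 within-sex differences, and interactions as differences of differences. P-values were adjusted by Benjamini and Hochberg over all probe sets, two-sided, and a call needed an adjusted p under 0.05 and a fold of 1.5. Errors are limma's standard errors. Groups not overlapping means that no array of one reached the other, and such counts are given for the members only. The script was tested on simulated data. Per-array values were given for the members called in any graft comparison and for the extremes of each role group. For other lists at most 4 called genes per comparison, by size of change, were named.

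Alternatives were subtracting array medians, renewed quantile normalization, a filter on low probe sets, an intensity trend with robust variance, the mean of all probe sets of a gene, a replicate block, other sets of arrays in the fit, the kidney tubule level as a covariate and leaving out each array in turn. Leaving out the 2 arrays with the highest Mmrn1, and each array in turn for called genes of other lists, was added after the data were seen. Members, lists and tests were chosen with earlier results of these data known. Promoters and gene names are from RefSeq (GRCm38.p6), which gave promoters for 19 of the 40 members.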

Additional observations from a re-analysis of the deposited data

Results flagged for a closer look

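Among 78 sets of 4 islet values (39 members in 2 states), 16 had 1 array whose distance to the others was large for the range of its set. In each of the 16 the other 3 arrays were tied at the recorded decimal, and the gap was 0.1 to 0.3. The chance rate of about 1 in 20 holds for values without such ties, so the count of 16 cannot be set against it. In P12.5 islets the low arrays were Emcn at 8.3, Plvap at 8.8, Sox7 at 6.0, Ptprb at 7.1, Mmrn2 at 6.9 and Ecscr at 6.5, and the high ones Fli1 at 6.2, Clec14a at 6.1 and Nostrin at 6.5. In NP islets the low arrays were Cdh5 at 6.8, Tie1 at 7.3, Tal1 at 6.3, Lyve1 at 6.8, Aplnr at 6.2, Nostrin at 6.4 and Gata2 at 6.2. Groups of 3 grafts were too small for this screen, so the high Mmrn1 arrays of male P12.5 and female NP grafts are not among these.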

How the results depend on the processing

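Single arrays set the count of members called between female NP grafts and NP islets, which was 18 with all arrays and 9 to 19 when 1 was left out. Between P12.5 and NP in grafts of both sexes it was 1 with all arrays and 0 to 2 when 1 was left out, 0 with array medians subtracted, 0 with the kidney tubule covariate and 3 with all 20 arrays in the fit (Emcn, Ptprb and Ramp2). With the replicate number as a replicate block it was 0. In male grafts it was 2 with all 20 arrays in the fit (Nos3 and Rasip1), against 0. The median of the donor-sex interaction was -0.10 without the 2 arrays with the highest Mmrn1, against 0.30. The causes of these shifts were not tested. No change of a called member turned its sign in any alternative. Same-numbered samples correlated in their deviations from group means over 0.1 in 5 of 28 pairs. The highest values were 0.28 and 0.37, for replicates 2 and 3 of male and female P12.5 grafts. In 0 of 9 pairs of groups were all replicates over 0.1, and the labels give no pairing. Whether those P12.5 grafts share more than a number was not tested. The replicate block counts otherwise stayed within 1.5 times those without it. With 3 or 4 arrays a group and values in steps of 0.1, small changes could not be resolved.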
